A study of Mus musculus with 12 samples.

Results

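The genes described are 10 tetraspanins: Cd9, Cd37, Cd53, Cd63, Cd81, Cd82, Cd151, Tspan3, Tspan4 and Tspan14. They were chosen by symbol from 31 mouse tetraspanin genes, after mapping the Ensembl gene IDs of the count tables to GENCODE release M21. Each symbol matched a gene in the files, and all 10 passed the filter on low counts that left 12545 of 48526 genes for testing. Expression was measured by RNA sequencing in cells sorted as microglia from the spinal cord of Biozzi ABH mice. The sort kept cells positive for CD11b, with intermediate CD45, and without Ly-6C on the surface. The 4 groups, with 3 mice each, were control mice and mice in the acute, remission or chronic phase of chronic-relapsing experimental autoimmune encephalomyelitis (crEAE), an induced autoimmune attack on the central nervous system. All groups shared the strain, the tissue and the sort, and the labels used here give neither the age of the mice nor what the control mice received.

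Tetraspanins are small membrane proteins that cross the membrane several times and gather other proteins, such as integrins, immunoglobulin-like receptors and proteases, into patches of the cell surface called tetraspanin-enriched microdomains. Some act mainly at the plasma membrane, while CD63 cycles through late endosomes and lysosomes and is widely used as a marker of extracellular vesicles. In microglia and macrophages they are known for roles in adhesion, cell fusion, antigen presentation and the trafficking of surface receptors.

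Total counts ranged from 3992885 to 5712376 per library, of which 1266782 to 2496096 lay outside the 6 most abundant features and the mitochondrially encoded genes. Levels are CPM, counts divided by library size and set to a common scale, after trimmed-mean-of-M (TMM) scaling, and a gene is called changed at an adjusted p under 0.05 in edgeR's quasi-likelihood test, adjusted by Benjamini-Hochberg across these 12545 genes. The sorted cells carried microglial transcripts in every group: 10 listed microglial genes summed to 6468 to 7336 CPM in control, 1009 to 1773 in acute, 4958 to 5045 in remission and 4573 to 5122 in chronic libraries. All 10 of them fell in acute mice. Ptprc, which encodes CD45, stood at 422, 424, 427 and 377 CPM in control, acute, remission and chronic mice. Ly6c2, a gene of the antigen excluded by the sort, had 0 counts in control libraries and averaged 64.6 CPM in acute ones. Of 12 listed genes of monocytes and recruited macrophages, 11 were tested and all 11 rose in acute mice. Their sum was 11.2 to 45.7 CPM in control, 1547 to 2302 in acute, 11.2 to 25.8 in remission and 19.1 to 67.3 in chronic libraries. Among others of this list, Ly6c2, S100a4, F10 and Chil3 had 0 counts in control libraries, and none of the 12 did in acute libraries. In sorted bulk samples, a change in the cells collected and a change of RNA within each cell cannot be told apart, nor can fewer cells of a type and less RNA per cell.

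The 10 tetraspanins went different ways. Cd63 rose at every phase, to 4.57-fold its control level in acute, 7.74-fold in remission and 8.98-fold in chronic mice. Cd81, Cd37, Tspan14, Cd9, Cd151 and Cd53 fell in acute mice, by a factor of 1.54 for Cd53 up to 3.02 for Cd81. Cd9 was below control in acute mice and above it in remission and chronic mice, and Tspan14 stayed below control at all phases. Tspan4 was not called in any of the 6 comparisons, and Cd82 was called only between remission and acute mice under TMM scaling with all libraries.

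Against control, 1 of 10 tetraspanins rose and 6 fell in acute mice, where 43.7% of all genes tested were called, 23.7% higher and 20% lower. The median log2 fold change of the 10 was -0.75, against 0.02 over all genes tested. In remission 2 rose and 1 fell, where 9.31% of genes were called, 6.06% higher and 3.25% lower, and in chronic mice 2 rose and 1 fell, where 14.7% were called, 9.57% higher and 5.17% lower. Between phases, 7 were higher and 0 lower in remission than in acute mice, where 36.9% of genes were called, 17.6% higher and 19.4% lower. In chronic against acute mice 8 were higher and 0 lower, where 28.8% of genes were called, 13.3% higher and 15.5% lower. No tetraspanin was lower at an unadjusted p under 0.05 either in these 2 comparisons, and DESeq2 and limma-voom each also counted 0. Between chronic and remission mice 0 of 10 were called by edgeR, DESeq2 or limma-voom, where edgeR called 1.2% of all genes, 0.941% higher and 0.263% lower. At an unadjusted p under 0.05, 2 were higher there by edgeR, 1 by DESeq2 and 2 by limma-voom. A test for a difference anywhere among the 4 groups called 8 of the 10, against 44% of all genes.

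**Figure D1:**
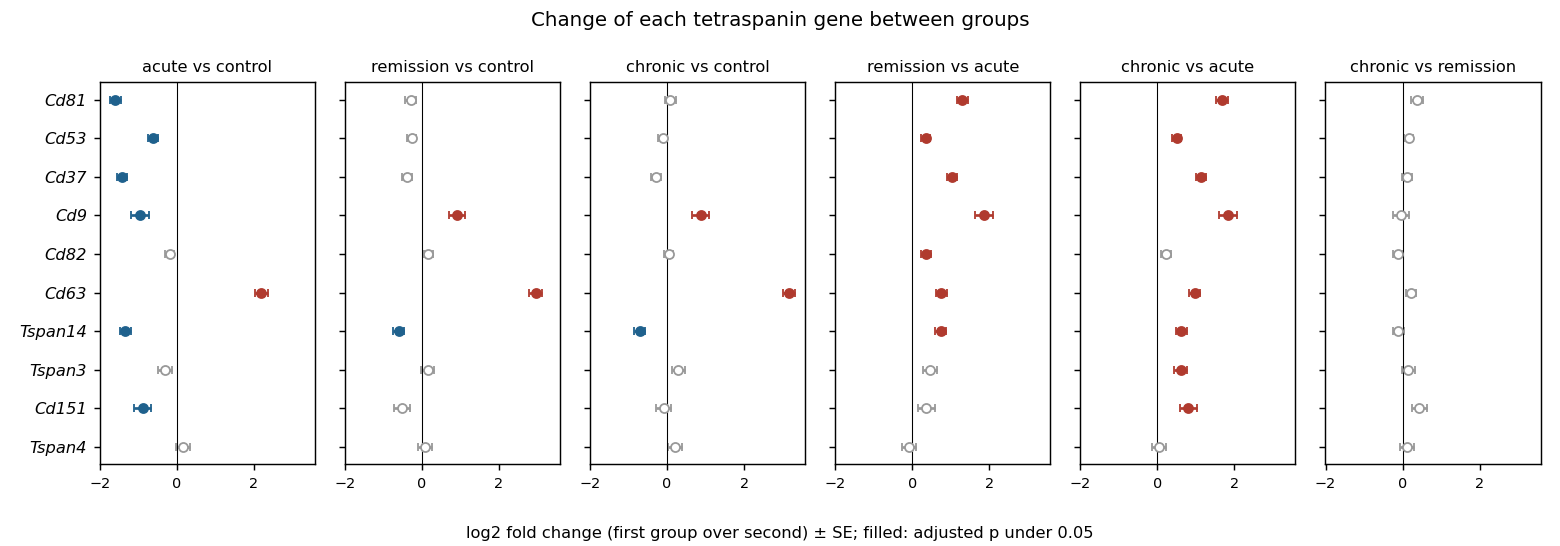
Log2 fold change (horizontal axis, first-named group over second) of each tetraspanin in the 6 comparisons, with the standard error as a bar and filled points where the adjusted p was under 0.05. In acute against control mice Cd63 lies at 2.19 and Cd81 at -1.60, and in chronic against remission mice no point is filled.

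The sequences before the start sites are shown for Cd63, which rose, and for Cd81, Cd37 and Tspan14, the members with the largest falls in acute mice. Each is the 250 bases before a RefSeq transcription start on the GRCm38.p6 assembly, 5′ to 3′ on the strand of the gene. Capitals mark matches on either strand to any of 6 motifs searched, namely the E-box core CACGTG, the PU.1 site GAGGAAGT, the AP-1 site TGANTCA, the interferon-stimulated element, the GC box GGGCGG and TATAAA.
Cd63 (chr10:128909095-128909344, plus strand): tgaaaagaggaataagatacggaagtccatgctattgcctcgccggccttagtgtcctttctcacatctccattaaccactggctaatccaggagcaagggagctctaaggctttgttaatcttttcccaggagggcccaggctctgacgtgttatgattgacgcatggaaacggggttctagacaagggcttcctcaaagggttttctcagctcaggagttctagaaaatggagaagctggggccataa
Cd81 (chr7:143052500-143052749, plus strand): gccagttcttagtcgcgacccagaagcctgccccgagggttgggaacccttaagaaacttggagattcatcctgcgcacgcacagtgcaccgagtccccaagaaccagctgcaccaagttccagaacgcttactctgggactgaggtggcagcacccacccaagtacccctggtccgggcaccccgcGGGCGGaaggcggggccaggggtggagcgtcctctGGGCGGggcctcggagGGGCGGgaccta
Cd37 (chr7:45238840-45239089, minus strand): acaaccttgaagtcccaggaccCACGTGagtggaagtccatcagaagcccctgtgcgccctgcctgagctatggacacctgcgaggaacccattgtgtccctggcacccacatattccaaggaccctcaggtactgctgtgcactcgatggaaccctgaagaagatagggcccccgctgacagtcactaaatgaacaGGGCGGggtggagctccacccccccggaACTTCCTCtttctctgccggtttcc
Tspan14 (chr14:40966897-40967146, minus strand): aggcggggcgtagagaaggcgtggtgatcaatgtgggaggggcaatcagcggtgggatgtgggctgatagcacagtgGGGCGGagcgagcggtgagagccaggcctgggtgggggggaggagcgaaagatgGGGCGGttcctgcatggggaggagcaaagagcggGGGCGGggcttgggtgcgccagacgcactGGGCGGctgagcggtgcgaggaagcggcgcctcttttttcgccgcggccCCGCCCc

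The Cd63 window held none of the 6 motifs. It precedes the RefSeq start in the table, which lies 8356 bases inside the GENCODE gene, so the sequence before the GENCODE gene start is not shown. For the Cd81, Cd37 and Tspan14 windows printed, the RefSeq start lies 11 bases inside, 276 bases inside and 89 bases before the GENCODE gene. The Cd81 window held 3 GC boxes and the first of 2 Tspan14 windows held 5. The Cd37 window held 1 GC box, 1 PU.1 match 25 bases before the start and 1 E-box core 228 bases before it. Over all 32851 windows of the same length, 32.7% held a GC box, 2.44% the PU.1 sequence, 6.02% the E-box core, 6.75% the AP-1 site, 2.98% the interferon-stimulated element and 12.4% TATAAA. All 10 tetraspanins were found in the promoter table, with 16 windows in all, and 7 had a GC box in some window, 2 the PU.1 sequence, 2 the E-box core and 0 any of the other motifs. These counts are of genes with 1 to 4 windows each, while the percentages are of single windows, so they are not directly comparable. A match is only a run of letters, and no binding was measured.

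The surface tetraspanins of leukocytes come first. Cd81 (ENSMUSG00000037706, chromosome 7 from 143052739 to 143067934 on GRCm38) encodes a partner of many immune receptors and integrins. Its level was 464, 450 and 505 CPM in the control libraries, 115, 159 and 196 in the acute, 369, 410 and 380 in the remission and 543, 485 and 479 in the chronic libraries. Acute libraries lay far below all others, remission libraries lay just below control, and chronic and control libraries overlapped. The fall in acute mice was from 473 ± 28.5 to 157 ± 40.3 CPM (SD, n = 3; log2 fold change -1.60 ± 0.15 SE, adjusted p 5.11e-08). Remission and chronic mice did not differ from control by the test, at -0.29 ± 0.15 (adjusted p 0.259) and 0.09 ± 0.15 (adjusted p 0.773). Among the 3 acute libraries Cd81 was lowest in the library with the lowest microglial sum and highest in that with the highest, with sums of 1009, 1342 and 1773 CPM. Tspan14, Cd82, Cd63 and Tspan4 had the same order over these libraries and Cd151 the opposite one. Cd37, Cd9, Cd53 and Tspan3 followed neither order. The part of the cell mixture in the fall of Cd81 was not tested.

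Cd37 (ENSMUSG00000030798, chromosome 7 from 45233632 to 45239115), a tetraspanin largely restricted to blood cells, stood at 125, 146 and 150 CPM in control libraries. It stood at 45.1, 60.5 and 51.3 CPM in acute, 114, 114 and 92.4 in remission and 117, 107 and 120 in chronic libraries. The acute libraries were the lowest, and remission and chronic libraries lay below the controls without overlap. The fall in acute mice was 2.68-fold (log2 fold change -1.42 ± 0.14 SE, adjusted p 6.07e-08). The difference from control missed the threshold in remission (-0.39 ± 0.13, adjusted p 0.0672) and in chronic mice (-0.29 ± 0.13, adjusted p 0.163). In remission the lower level was called by limma-voom (adjusted p 0.0316), in a fit of only these 2 groups (0.0236) and with library totals alone (0.0109).

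Cd53 (ENSMUSG00000040747, chromosome 3 from 106759921 to 106790149) encodes a tetraspanin found on nearly all leukocytes. Its levels were 149, 168 and 167 CPM in control, 107, 97.8 and 109 in acute, 123.9, 133 and 144 in remission and 162, 144 and 142 in chronic libraries. It was lowest in acute libraries, but its range was narrower than that of Cd81 or Cd37. The acute mean of 105 ± 6.2 CPM was lower than the control mean of 161 ± 10.8 CPM (log2 fold change -0.62 ± 0.12 SE, adjusted p 0.00024), and remission mice were above acute mice by 0.35 ± 0.12 (adjusted p 0.026). The second call ended without acute replicate 2 (adjusted p 0.107) or remission replicate 3 (adjusted p 0.0977). B cells also express these 3 genes, and 7 listed B cell genes summed to 4.38 to 6.91 CPM in control and 2.85 to 3.56 CPM in acute libraries, with Ms4a1 at 0 counts in both.

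Cd9 (ENSMUSG00000030342, chromosome 6 from 125460266 to 125494791) encodes a tetraspanin of cell adhesion and of the control of cell fusion, and is counted among the genes raised in damage-associated microglia. Its level was 73.7, 111 and 85.2 CPM in control libraries and 46.2, 41.8 and 51 in acute libraries. It reached 188, 165 and 153 CPM in remission libraries and 204, 188 and 101 in chronic libraries. Acute libraries lay below all others and remission libraries above all control libraries, while the lowest chronic library, replicate 3, fell within the control range. Against control, Cd9 fell in acute mice (log2 fold change -0.96 ± 0.23 SE, adjusted p 0.00367) and rose in remission (0.91 ± 0.22, adjusted p 0.0156) and chronic mice (0.87 ± 0.22, adjusted p 0.014). The acute call held without any 1 of the libraries. The remission call ended without control replicate 1 (adjusted p 0.0855), control replicate 3 (0.0761) or remission replicate 1 (0.0679), and with library totals as the only scaling (0.0609). The chronic call ended without control replicate 1 (adjusted p 0.0744), control replicate 3 (0.0668), chronic replicate 1 (0.0582) or chronic replicate 2 (0.0525), with library totals alone (0.0888) and in a fit of only these 2 groups (0.0905). The differences between phases were larger, with Cd9 at 3.64-fold its acute level in remission (adjusted p 2.16e-05) and 3.55-fold in chronic mice (adjusted p 3.89e-05). Platelets also carry much CD9 and CD63, and 5 platelet genes summed to 9.39 to 19 CPM in control, 5.06 to 11.3 in acute, 7.65 to 10.9 in remission and 5.22 to 7.72 in chronic libraries, with Ppbp at 0 counts outside control. A list of 8 oligodendrocyte genes summed to 87.6 to 110 CPM in control, 450 to 589 in acute and 82.1 to 84.1 in chronic libraries. In remission libraries it summed to 707, 71.7 and 141 CPM, highest in replicate 1, where Cd9 was also highest. The part of other cells in the level of Cd9 was not tested.

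Cd82 (ENSMUSG00000027215, chromosome 2 from 93419111 to 93463140), whose human counterpart is known as a suppressor of metastasis, moved little. Its levels were 81.9, 79.7 and 75.1 CPM in control, 61.5, 65.5 and 80.9 in acute, 84, 89.3 and 93 in remission and 83.8, 81.9 and 78 in chronic libraries. Control, acute and chronic libraries overlapped. With the main scaling and all libraries it was called only between remission and acute mice (log2 fold change 0.36 ± 0.12 SE, adjusted p 0.0293), and this call ended without acute replicate 1 (adjusted p 0.136) or 2 (0.104), or remission replicate 2 (0.0545) or 3 (0.0856). In chronic against acute mice it was called without acute replicate 3 (adjusted p 0.0479), against 0.182 with all libraries. With library totals as the only scaling the acute level was called below control (adjusted p 0.000357).

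**Figure D2:**
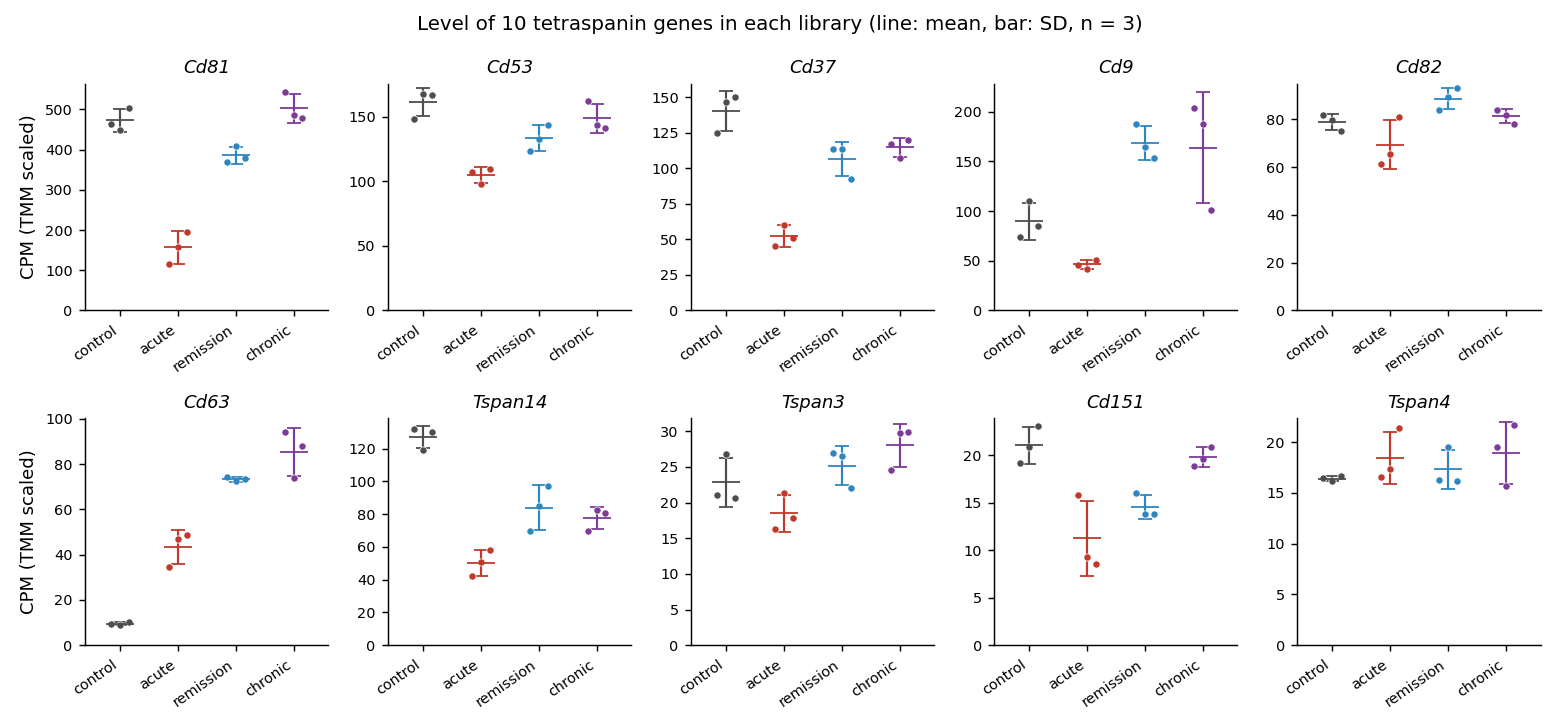
Level in CPM (vertical axis, from 0, its own range in each panel) of the 10 tetraspanins in each library, with points for the 3 libraries of a group, a line at the mean and bars of 1 SD. Cd63 is lowest in control libraries, at 8.76 to 10.1 CPM, whereas Cd81, Cd37, Tspan14 and Cd53 are lowest in acute libraries.

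Cd63 (ENSMUSG00000025351, chromosome 10 from 128900989 to 128912822) is the tetraspanin of late endosomes and lysosomes. It stood at 9.53, 8.76 and 10.1 CPM in control libraries, 34.8, 46.9 and 48.6 in acute, 74.4, 72.3 and 73.3 in remission and 94.2, 73.6 and 88 in chronic libraries. All disease libraries lay above all controls, and all remission and chronic libraries lay above all acute ones. The rise over control was 2.19 ± 0.16 on the log2 scale in acute (adjusted p 1.65e-09), 2.95 ± 0.16 in remission (adjusted p 1.41e-10) and 3.17 ± 0.16 in chronic mice (adjusted p 3.73e-11). Remission mice exceeded acute mice 1.69-fold (adjusted p 0.000314), and chronic mice were not called against remission (0.22 ± 0.14, adjusted p 0.476). In the remission libraries, the monocyte list summed to 25.8, 17.6 and 11.2 CPM, against 11.8, 11.2 and 45.7 CPM in control libraries. Of its 12 genes, 11 had a count in remission and 7 in control. In remission libraries, 6 dendritic cell genes summed to 99.9 to 183 CPM, against 21.1 to 28.6 in control. Itgax made up most of the remission sum, whereas Zbtb46 had the highest mean of these genes in control. Of the 6 dendritic cell genes 3 were tested, of which 2 were higher and 0 lower in remission than in control. The 5 astrocyte genes summed to 84.7 to 142 CPM in remission, against 45.8 to 57.8 in control. Endothelial and pericyte genes summed to 24.4 to 29.9 CPM, against 13.8 to 15.1. T and NK cell genes were lower in sum, at 5.58 to 8.49 CPM, against 22.7 to 36.4. Il7r made up most of both sums, averaging 5.76 CPM in remission and 28.5 CPM in control. Of these 10 genes, 9 had a count in remission libraries and 4 in control libraries. The part of other cells in the rise of Cd63 was not tested. A processed pseudogene of Cd63 received 16.3% of the summed counts of gene and pseudogene in control libraries, and 18.7%, 17% and 15.3% in the acute, remission and chronic libraries. Reads of such a copy may stem from Cd63 itself. With both added, control mice had 11.3 ± 0.185 CPM, acute mice 53.4 ± 8.65, remission mice 88.2 ± 1.28 and chronic mice 101 ± 13.9, in the same order.

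Tspan3 (ENSMUSG00000032324, chromosome 9 from 56131725 to 56165477), a broadly expressed tetraspanin, stood at 21.1, 26.8 and 20.7 CPM in control libraries. It stood at 16.3, 21.3 and 17.8 CPM in acute, 26.9, 26.6 and 22 in remission and 24.5, 29.7 and 29.8 in chronic libraries. Acute libraries were the lowest on average and overlapped the controls. It was called only between chronic and acute mice (log2 fold change 0.60 ± 0.18 SE, adjusted p 0.0153), and not without acute replicate 1 (adjusted p 0.0741) or chronic replicate 2 (0.0569). With library totals alone the acute level was also called below control (adjusted p 0.00107). Remission against acute missed the threshold (0.45 ± 0.18, adjusted p 0.0527) and passed it without acute replicate 2 (0.0398), remission replicate 3 (0.0405), control replicate 1 (0.0483), 2 (0.0404) or 3 (0.0483), or chronic replicate 1 (0.0454).

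Cd151 (ENSMUSG00000025510, chromosome 7 from 141467392 to 141471473) encodes the tetraspanin that binds laminin-binding integrins. Its levels were 19.2, 20.9 and 23.1 CPM in control, 15.8, 9.32 and 8.6 in acute, 16.1, 13.8 and 13.8 in remission and 18.8, 19.6 and 20.9 in chronic libraries. Acute and remission libraries lay below all control libraries, and acute replicate 1 stood above the other 2 acute libraries. The fall in acute mice was 1.85-fold (log2 fold change -0.89 ± 0.21 SE, adjusted p 0.00199). The lower remission level was not called (-0.52 ± 0.20, adjusted p 0.12), and chronic mice exceeded acute mice by 0.80 ± 0.22 (adjusted p 0.00827). Remission against acute was not called (0.37 ± 0.22, adjusted p 0.206), but was without acute replicate 1 (0.70, adjusted p 0.0233) and with library totals alone (0.68, adjusted p 0.0268). With library totals alone it was also called below control in remission (-0.76, adjusted p 0.0238).

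Tspan4 (ENSMUSG00000025511, chromosome 7 from 141475240 to 141493427), known for its part in forming migrasomes on the trailing fibres of moving cells, kept close to its control level. It stood at 16.5, 16.1 and 16.6 CPM in control, 16.6, 17.3 and 21.3 in acute, 16.2, 19.5 and 16.2 in remission and 19.5, 15.7 and 21.7 in chronic libraries. All 4 groups overlapped. The log2 fold change against control was 0.16 ± 0.19 SE for acute mice, 0.08 ± 0.18 for remission mice and 0.20 ± 0.18 for chronic mice (adjusted p 0.504, 0.861 and 0.549). With library totals alone the acute value was -0.40 (adjusted p 0.128), of the opposite sign and not called. Its exons share 292 bases with a gene on the opposite strand, Chid1, which averaged 25.6 CPM in control and 11.5 CPM in acute mice, and the Nextera XT kit named in the labels does not keep the strand. Cd151 and Tspan4 are close together on chromosome 7.

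Tspan14 (ENSMUSG00000037824, chromosome 14 from 40906445 to 40966807) belongs to the TspanC8 tetraspanins, which bind the protease ADAM10 and direct it to the surface and to its substrates. It stood at 132, 120 and 130 CPM in control libraries, 42.3, 50.9 and 58.1 in acute, 69.8, 84.7 and 97.5 in remission and 69.9, 82.5 and 80.6 in chronic libraries. All disease libraries lay below all controls, and all acute libraries lay below those of the later phases. Against control it fell by 1.34 ± 0.15 on the log2 scale in acute mice (adjusted p 2.87e-07), by 0.60 ± 0.14 in remission (adjusted p 0.00714) and by 0.71 ± 0.14 in chronic mice (adjusted p 0.00123). The remission call ended without remission replicate 1 (adjusted p 0.0577). Under TMM scaling and with all libraries, edgeR called no other of the 10 lower than control in remission or chronic mice. With library totals alone, Cd37, Cd53, Cd81 and Cd151 were also called lower in remission, and Cd37 and Cd53 in chronic mice.

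**Figure D3:**
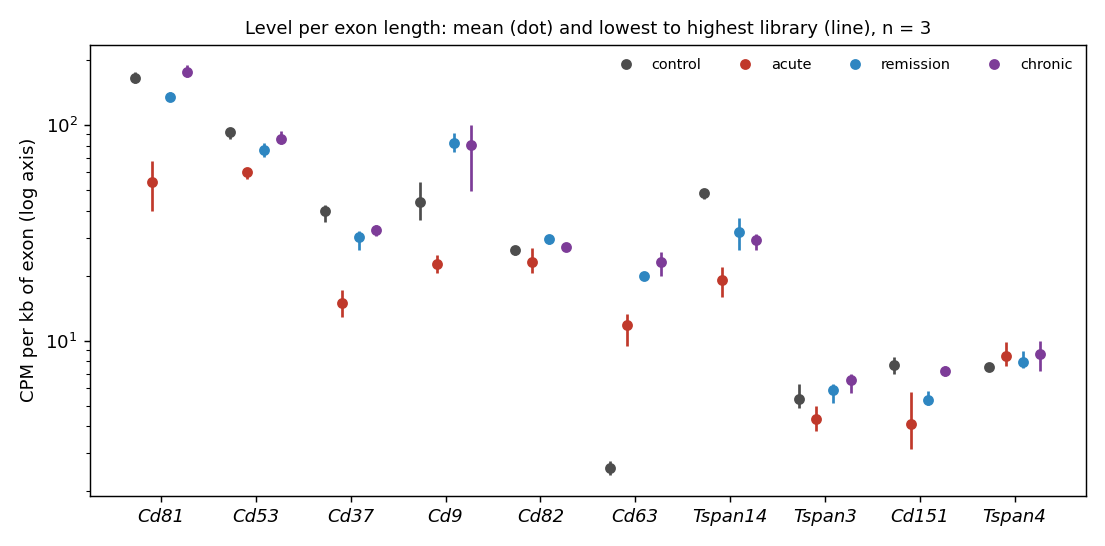
Mean level of each tetraspanin per kilobase of exon (vertical log axis) by group, with a line from the lowest to the highest of the 3 libraries. Cd63 moves from 2.57 CPM per kilobase in control to 23.2 in chronic mice, while Tspan4 stays between 7.54 and 8.70.

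Levels of different genes were compared per kilobase of exon in the annotation. Cd81 led in control mice at 164 ± 9.9 CPM per kilobase, above Cd53 at 92.5 ± 6.21. Tspan14 (48 ± 2.54), Cd9 (43.9 ± 9.23) and Cd37 (39.9 ± 3.9) followed, each overlapping its neighbour in this order, then Cd82 (26.3 ± 1.16). Cd151 (7.68 ± 0.711) and Tspan4 (7.54 ± 0.119) overlapped each other, and Tspan3 (5.35 ± 0.802) and Cd63 (2.57 ± 0.188) were last. In acute mice Cd53 at 60.2 ± 3.56 and Cd81 at 54.4 ± 14 overlapped at the top, and Cd63 rose to rank 7. In remission Cd81 (134 ± 7.26) was first, Cd9 (82.5 ± 8.58) and Cd53 (76.6 ± 5.7) overlapped, and Cd63 reached 19.9 ± 0.281. In chronic mice the order opened with Cd81 (174 ± 12.2) and Cd53 (85.5 ± 6.43), which Cd9 (80.3 ± 27.1) overlapped, and Cd63 stood at 23.2 ± 2.86. Of all genes tested, 47.5% had a lower level per kilobase than Cd63 in control mice, and 88.6%, 95.1% and 95.6% did at the acute, remission and chronic phases. The same share for Cd81 was 99.5% in control, 98.4% in acute, and 99.4% in remission and chronic mice.

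The summed level of the 10 genes was 1140 ± 46.2 CPM in control mice, and 571 ± 70.7, 1098 ± 25.3 and 1241 ± 88.8 CPM at the acute, remission and chronic phases. Per kilobase, Cd81 made up 37.5 ± 1.97% of the sum in control mice, then 24.2 ± 3.74%, 31.6 ± 1.1% and 36.8 ± 1.28% at the 3 phases in that order. The share of Cd9 was 10 ± 1.91% in control mice, then 10.2 ± 0.99%, 19.5 ± 2.22% and 16.7 ± 4.66%. The share of Cd63 was 0.588 ± 0.0452% in control mice, then 5.27 ± 0.548%, 4.7 ± 0.154% and 4.89 ± 0.63%.

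For each tetraspanin, the 3 genes with the most like pattern were sought among 6462 genes with at least 10 CPM on average, as the smallest root-mean-square difference of centred log2 CPM over the 12 libraries. Csf1, a growth factor of microglia, was nearest to Cd63 with a difference of 0.344, followed by Colec12 (0.385), a scavenger receptor, and the myosin gene Myo1e (0.408). Csf1 averaged 9.47, 36.8, 84.7 and 81.5 CPM in control, acute, remission and chronic mice. Nearest to Cd9 were Apbb2 (0.228), Pitpnc1 (0.257) and Ctsd (0.268), which encodes the lysosomal protease cathepsin D. Plod1 (0.127), a collagen-modifying enzyme gene, and Dagla (0.149), which encodes an enzyme of endocannabinoid synthesis, were nearest to Cd81. Cd37 was nearest to Man2a2 (0.150), Pald1 (0.151) and Serinc3 (0.159), and Tspan14 to Arhgap12 (0.132), Chd9 (0.136) and Scamp5 (0.141). The distances for Cd53 (Tacc1, Zfx and Tmem59), Cd151 (Cnpy3, Nmt1 and Cds1), Cd82 (Mark3, Arid2 and Rab14), Tspan3 (Srsf9, Dag1 and Gpr146) and Tspan4 (Hadha, Hnrnpl and Ptprj) lay between 0.086 and 0.207. Between 2 of the 10 tetraspanins themselves the smallest distances were 0.212 for Cd53 and Cd82 and 0.213 for Cd82 and Tspan4, members that varied little, and that of Cd37 and Cd81 was 0.265.

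Of the 21 other tetraspanin genes, 11 passed the filter and 10 did not, the latter with at most 48 counts over all 12 libraries. In acute against control mice 3 of the 11 rose and 4 fell, where 43.7% of all genes were called. In remission 1 rose and 1 fell, where 9.31% of all genes were called, and in chronic mice 1 rose and 1 fell, where 14.7% were called. Tspan18, known from endothelial cells as a partner of a calcium channel, fell from 24 ± 4.61 to 2.01 ± 0.424 CPM in acute mice (log2 fold change -3.56 ± 0.41 SE, adjusted p 1.56e-06). It also fell in remission, to 10.3 ± 4.77 CPM (adjusted p 0.0161), and in chronic mice, to 9.2 ± 3.99 CPM (adjusted p 0.00594). The remission call ended without control replicate 2 (adjusted p 0.0939), control replicate 3 (0.0559) or remission replicate 2 (0.0565). Tspan13 fell 3.27-fold (adjusted p 3.44e-05), Tspan7 2.08-fold (adjusted p 2.21e-05) and Tspan9 1.77-fold (adjusted p 0.00176) in acute mice. Tspan9, best known from platelets, then rose above control in chronic mice, from 16.4 ± 0.818 to 28.5 ± 3.22 CPM (adjusted p 0.00273, and 0.128 with library totals alone). Tspan31, which shares 641 exon bases with Cdk4 on the opposite strand, and Tspan17, Tspan32 and Rom1 were not called in any comparison by edgeR under TMM scaling with all libraries. With library totals alone, Tspan31 was called lower in acute mice (-0.80, adjusted p 0.00183).

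Tspan2, a tetraspanin typical of oligodendrocytes, stood at 0.711, 0.35 and 0.863 CPM in control libraries and at 20, 8.26 and 7.41 CPM in acute libraries. In remission it stood at 15.5, 1.15 and 2.12 CPM, and in chronic libraries at 0.227, 0.54 and 0.765 CPM. Acute libraries and remission replicate 1 stood apart from all others. The rise in acute mice was called (log2 fold change 4.18 ± 0.98 SE, adjusted p 0.00517), and the higher remission mean was not (adjusted p 0.0703). In remission the call was made without remission replicate 2 (adjusted p 0.00696), remission replicate 3 (0.0394) or acute replicate 1 (0.0436), and by DESeq2 (0.00113), and against acute mice Tspan2 was called lower without remission replicate 1 (adjusted p 0.000285). The 8 listed oligodendrocyte genes summed to 589, 450 and 491 CPM in acute libraries and 707, 71.7 and 141 CPM in remission libraries, against 87.6 to 110 in control and 82.1 to 84.1 in chronic libraries. Of these 8, 6 rose in acute mice, and their part in the change of Tspan2 was not tested.

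**Figure D4:**
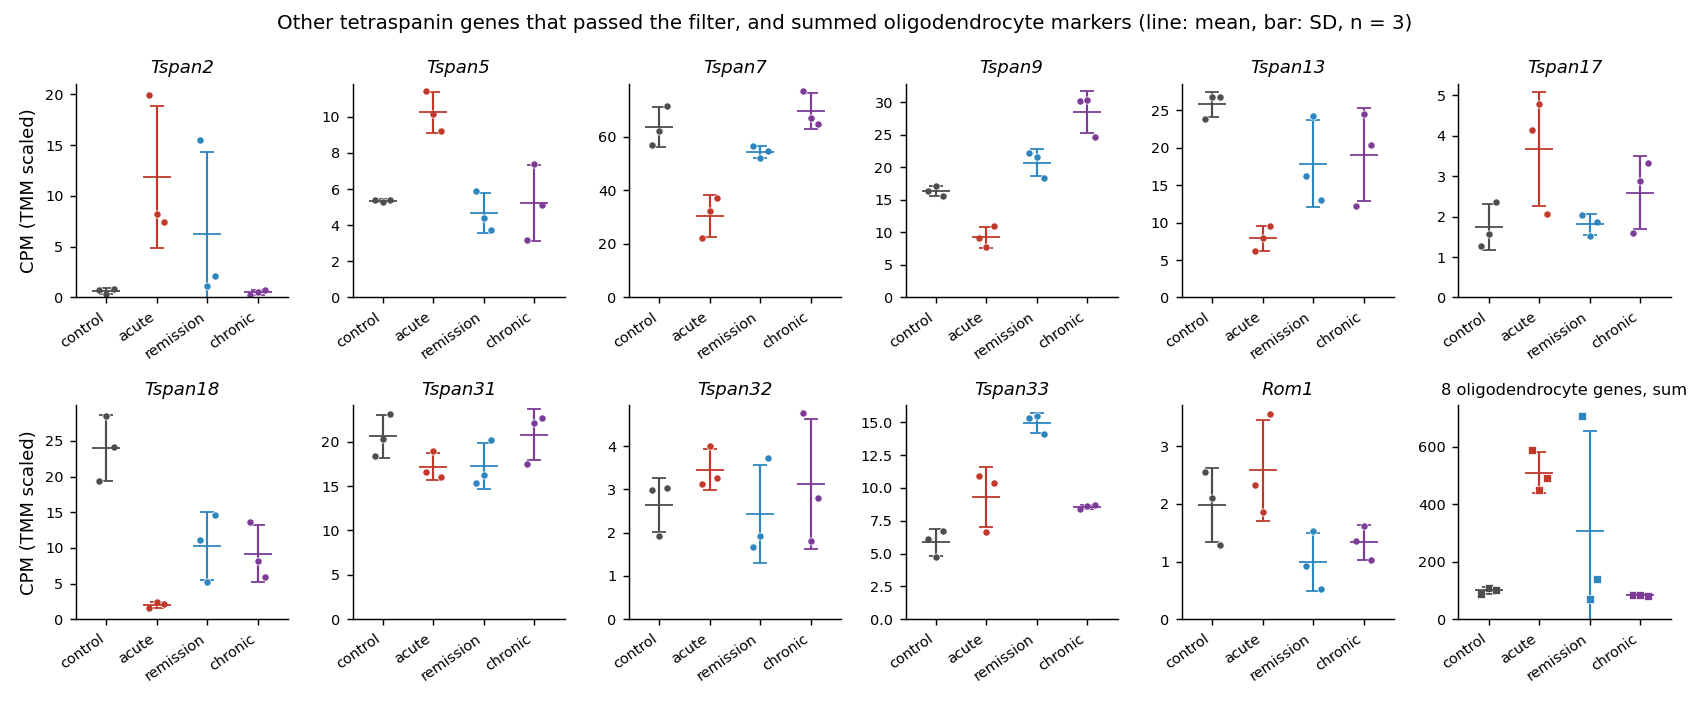
Level in CPM (vertical axis) of the 11 other tetraspanins that passed the filter, and the summed level of 8 oligodendrocyte genes, with points for libraries, lines for means and bars of 1 SD cut at 0. Tspan18 falls from 24 to 2.01 CPM in acute mice, and remission replicate 1 is high for Tspan2 and for the oligodendrocyte sum.

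Among the other TspanC8 genes, Tspan33 rose in remission to 15 ± 0.773 CPM, against 5.85 ± 1.01 CPM in control mice (log2 fold change 1.36 ± 0.24 SE, adjusted p 0.000576). Its rise in acute mice (0.67 ± 0.25, adjusted p 0.0351) ended without acute replicate 1 (adjusted p 0.15) or 3 (0.106) or control replicate 1 (0.0734) or 2 (0.147), and also by DESeq2 (0.0567) and limma-voom (0.0705). Tspan5 rose in acute mice, from 5.35 ± 0.0826 to 10.2 ± 1.12 CPM (adjusted p 0.0164), not called without acute replicate 1 (0.0638) or control replicate 1 (0.0517) or 2 (0.0527), and 0.337 with library totals alone. Tspan17 stood at 1.74 ± 0.565 CPM in control and 3.67 ± 1.42 in acute mice (adjusted p 0.0697), a difference called without acute replicate 3 (0.0356) and by limma-voom (0.0221). A list of 20 genes for ADAM10, these tetraspanins, known substrates and related proteases had 14 members tested, of which 7 rose and 3 fell in acute mice, where 23.7% of all genes were higher and 20% lower. Their median log2 fold change was 0.52, against 0.02 over all genes. Tspan14 is a member of that list. So is Adam10, which fell from 203 ± 8.54 to 143 ± 15.8 CPM in acute mice (adjusted p 0.00452) and is also counted among the membrane partners below. The part of other cells in these changes was not tested. Cxcl16, a membrane-bound chemokine shed by ADAM10, rose from 11.5 ± 0.712 to 90.7 ± 16.9 CPM, and Trem2, a microglial receptor shed by ADAM proteases, fell from 350 ± 26.8 to 90.9 ± 26.8 CPM. Psen2, a subunit of the gamma-secretase that cuts the remaining stubs, rose from 7.32 ± 2.18 to 33.8 ± 5.36 CPM. In remission 4 of the 14 rose and 1 fell, where 9.31% of all genes were called, and in chronic mice 3 rose and 1 fell, where 14.7% were called.

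Membrane partners of tetraspanins changed widely in acute mice, where the monocyte list summed to 1547 to 2302 CPM, and the part of these cells was not tested. Of 25 listed partners 18 were tested, of which 13 rose and 3 fell, where 23.7% of all genes were higher and 20% lower. Their median log2 fold change was 1.95, against 0.02 over all genes. The integrin gene Itga6, whose product binds laminin together with CD151, fell from 297 ± 18.1 to 69.5 ± 14.4 CPM (adjusted p 5.59e-08). Itga4 rose from 14.3 ± 2.41 to 108 ± 29.8 CPM (adjusted p 1.57e-06), Itgb2 from 250 ± 8.26 to 486 ± 36.1 CPM (adjusted p 2.32e-06) and the adhesion receptor Vcam1 from 1.97 ± 0.841 to 27.1 ± 3.69 CPM (adjusted p 1.91e-09). Cd47 rose from 54.1 ± 6.14 to 143 ± 27.4 CPM, and Cd4, a T cell gene, had 0 counts in control and stood at 22.4 ± 7.03 CPM in acute libraries. In remission 2 of the 18 rose and 0 fell, where 9.31% of all genes were called, and in chronic mice 6 rose and 0 fell, where 14.7% were called, with Vcam1 in both at 10.2 ± 1.22 and 11.5 ± 2.27 CPM.

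Genes of late endosomes and of vesicle release, the compartment of CD63, rose in acute mice for 9 of 17 tested members of a list of 20, and 0 fell, where 43.7% of all genes were called, 23.7% higher and 20% lower. The median log2 fold change was 0.31, against 0.02 over all genes. In the same acute libraries the monocyte list summed to 1547 to 2302 CPM, and the part of these cells in the rise was not tested. Sdcbp, which encodes syntenin, an adaptor that binds CD63, rose from 75.4 ± 11.6 to 197 ± 25 CPM (adjusted p 6.72e-08). Flot2 rose from 8.32 ± 0.567 to 36.9 ± 4.75 CPM, Rab7 from 33 ± 0.679 to 83.8 ± 12.3 CPM and Chmp4b from 11.9 ± 2.13 to 29.7 ± 3.94 CPM. In remission 1 rose and 2 fell, where 9.31% of all genes were called, and Sdcbp was not called (0.17 on the log2 scale, adjusted p 0.518), with Cd63 at 7.74-fold its control level in the same mice. In chronic mice 5 of the 17 rose and 0 fell, where 9.57% of all genes rose, among them Sdcbp at 110 ± 2.27 CPM (adjusted p 0.00804, 0.479 with library totals alone and 0.0739 without control replicate 2).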

How the data were processed

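RNA from sorted spinal cord microglia of 12 mice was sequenced with Nextera XT libraries and single 75-base reads, per the labels' protocols. The deposited values are raw counts of reads per Ensembl gene. The submitters' processing notes name HISAT2, SAMtools 1.3.1, Picard 2.6.4, HTSeq 0.6.1 and GRCm38; the annotation release and counting settings are not given in the sources used here. The merged table equalled the single tables in all 48526 genes, of which 382 were not found in GENCODE M21 and held 0.0208% of the counts.

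Groups came from the labelled disease phase. Replicate numbers follow record order and pair no mice, and p-values measure only the spread between these samples. Genes passing filterByExpr (12545) were fitted in edgeR 4.0.16 (R 4.3.3) with TMM scaling and a robust quasi-likelihood model of the 4 groups, and each p was adjusted by Benjamini-Hochberg over all genes of a comparison. All comparisons with control share the 3 control libraries. Levels are mean ± SD of 3 mice, and SE is that of the log2 fold change. In data simulated for acute against control, the test recovered 16% of genes changed 1.5-fold, 72% changed 2-fold and 100% changed 4-fold, and 4 of 148 calls were of unchanged genes. The simulation drew every group from the control means and changed only 50 genes at each fold, in equal numbers up and down. The real comparison called 43.7% of genes, and these rates were not measured for a shift of that extent.

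Alternatives were DESeq2 1.42.0, limma-voom (limma 3.58.1), other scalings, no filter, fits of 2 groups, the number in the sample titles as a covariate, and leaving out each library. Named genes were the 10 tetraspanins, the other tetraspanins that passed the filter, up to 6 membrane, 4 endosomal and 4 ADAM10-related partners with the smallest p of the 4-group test, and the 3 genes most like each tetraspanin, except that some genes are not reported here. Adam10 was named in addition. Members and lists were chosen with earlier results of these data known. Promoter windows are from RefSeq.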

Additional observations from a re-analysis of the deposited data

Results flagged for a closer look

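The change from control differed between remission and acute mice for 7 of the 10 tetraspanins, and between chronic and acute mice for 8. The test was edgeR's test of the difference itself, which with shared controls is the direct comparison of the phases. Of all genes, 36.9% differed between remission and acute mice and 28.8% between chronic and acute mice. Cd82 is among the 7, although the 4-group test did not call it (adjusted p 0.122) and its call ended in 5 alternatives. From acute to remission, the log2 fold change against control differed by 1.86 (Cd9), 1.304 (Cd81), 1.03 (Cd37), 0.76 (Cd63), 0.73 (Tspan14), 0.36 (Cd82) and 0.35 (Cd53). From acute to chronic, it differed by 1.83 (Cd9), 1.68 (Cd81), 1.13 (Cd37), 0.97 (Cd63), 0.80 (Cd151), 0.63 (Tspan14), 0.60 (Tspan3) and 0.51 (Cd53). Each difference was towards a higher level after the acute phase. For Cd9 the sign against control changed, from -0.96 in acute to 0.91 in remission and 0.87 in chronic mice. The acute libraries were also those with the lowest microglial sums, 1009 to 1773 CPM, and the highest monocyte sums, 1547 to 2302 CPM, whose part in these differences was not tested.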

How the results depend on the processing

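Over 20 alternatives for each of 60 log2 fold changes of the 10 tetraspanins, 1157 values stayed on their side of the threshold, 22 lost a call and 21 gained one. No value called in either fit turned sign. Of the 1157, 1135 kept their sign and 22 values called in neither fit turned it, 11 of them with library totals alone, to between -0.40 and 0.24 on the log2 scale; they are of Tspan4, Cd82, Tspan3, Cd81, Cd9, Cd37 and Tspan14. With library totals as the only scaling, the median of all genes moved by -0.56 (log2) in acute against control, -0.25 in remission and -0.36 in chronic mice, and by 0.31 in remission against acute mice. Relative to control, that scaling gave 1 tetraspanin higher and 5 lower in remission and 1 higher and 3 lower in chronic mice; over all genes, the share of calls that were higher went from 54.3% to 22.8% in acute, 65.1% to 32.6% in remission and 64.9% to 21.7% in chronic mice. The share went from 47.6% to 71.2% in remission against acute mice, 46.3% to 64.4% in chronic against acute mice and 78.1% to 61.4% in chronic against remission mice. In remission against control, limma-voom and the fit of only these groups each gave 2 lower, and in chronic against control the fit of only these groups gave 1 higher. Leaving out 1 library gave 1 to 2 higher and 0 to 1 lower in remission, 1 to 2 higher in chronic, 6 to 8 higher in remission against acute and 7 to 9 higher in chronic against acute mice. Acute against control gave 1 higher and 6 lower whichever library was left out. Adding the title number to the fit, the remission against acute calls of Cd53 (adjusted p 0.0628) and Cd82 (0.0609) and the chronic against acute call of Tspan3 (0.0507) ended. Over all genes, remission against control gave 1168 calls, and 767 without control replicate 1 or 757 without control replicate 2; chronic against control gave 1848, and 3241 with library totals or 1216 without control replicate 2. Chronic against remission gave 151 calls, 828 without the filter, 385 by DESeq2, 54 by limma-voom, 26 in the fit of only these groups and 17 to 283 without 1 library; chronic against acute gave 3610, and 2402 with the title number. All chronic libraries carried the same title number and most acute ones another, so the title number cannot be fully told apart from that comparison. The cause of these changes in calls was not tested. With 3 mice a group, the SE of the 60 values ran from 0.116 to 0.231 on the log2 scale, which limits what could be called.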
